A study of Mus musculus with 6 samples.

Results

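Notch signalling passes messages between touching cells. The genes described here are 10 of its members: the receptors *Notch1*, *Notch2*, *Notch3* and *Notch4*, the ligands *Jag1*, *Jag2*, *Dll1* and *Dll4*, and the target genes *Hes1* and *Hey1*. They were chosen by name. Each had a probe set annotated to a single gene symbol, so all 10 of 10 were measured among 19938 genes, with the brightest such probe set standing for the gene. The lungs came from mouse embryos at E18.5, and each array held the RNA of 1 whole lung sample from a single embryo. The 3 *Tnrc6a* null lungs came from *Tnrc6a* gt/gt embryos backcrossed to C57Bl/6, which carry on both alleles a gene trap that inserts a β-galactosidase gene into the *Tnrc6a* locus of every cell. The 3 WT lungs came from wild type littermates of the same strain, and no label ties a WT embryo to a null embryo. TNRC6A, also called GW182, is the partner of Argonaute proteins in gene silencing by microRNAs, so the comparison asks which transcripts differ in lungs without the intact gene. Because whole lung was measured, fewer cells of a type and less RNA per cell cannot be told apart.

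A ligand on one cell binds a receptor on its neighbour, which lets the metalloprotease ADAM10 and then γ-secretase cut the receptor. The freed intracellular part joins the DNA-binding protein RBPJ and a Mastermind coactivator, and this complex switches on the *Hes* and *Hey* repressor genes. In developing airways, Notch signalling favours secretory cells over multiciliated and neuroendocrine cells, and in lung vessels it directs arterial endothelium and the mural cells that coat vessels. The pathway is also tied to the microRNAs of multiciliated cells. In human airway cells, miR-449 represses *DLL1* and *NOTCH1*, and in other human cells miR-34a represses *NOTCH1* and *JAG1*. Of that family, the mature mouse microRNAs with names ending in 5p in the RefSeq table (build GRCm38.p6) are shown. Other members, such as miR-34c, are not shown. Those shown share a single seed, written in capitals (bases 2 to 8), through which they recognise targets.
mmu-miR-34a-5p, chr4:150068473-150068494, plus strand: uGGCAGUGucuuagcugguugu
mmu-miR-34b-5p, chr9:51103610-51103632, minus strand: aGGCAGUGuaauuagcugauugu
mmu-miR-449c-5p, chr13:113036008-113036028, plus strand: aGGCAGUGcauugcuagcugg
mmu-miR-449a-5p, chr13:113037549-113037570, plus strand: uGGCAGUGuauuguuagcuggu
Each of the 4 carries the seed GGCAGUG. Their own genes gave dim array values with overlapping genotypes, for example 4.16, 4.26 and 4.66 for *Mir449a* in the null lungs and 3.99, 4.0 and 4.38 in the WT lungs (difference 0.24, standard error 0.174, adjusted p = 0.898 from limma), and 3.34, 3.31 and 3.24 for *Mir34a* in the null lungs and 3.28, 2.98 and 3.26 in the WT lungs. Whether the mouse Notch transcripts hold sites for this seed was not analysed here.

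Values are processed array signals on the log scale on which the authors deposited them. The labels give 2 as the base, which the files used here cannot check, so results are differences on that scale (*Tnrc6a* null minus WT) rather than folds. *Tnrc6a* checked the labels, at 5.45, 5.04 and 5.40 in the null lungs and 7.38, 7.13 and 7.18 in the WT lungs, and it fell by 1.93 (standard error 0.128, adjusted p = 0.00312 from limma). It was the single gene of 19938 past an adjusted p of 0.05, which is 0.00502% of all genes. The array medians lay between 4.98 and 5.03. Of 9 genes of lung identity, 7 were lower on average in the null lungs, 1 of them (*Tcf21*) at an unadjusted p under 0.05 from limma. Over all genes 49.8% were lower on average, and 2.96% were lower at that level. The 9 genes were bright in every lung, such as surfactant protein gene *Sftpc* at 11.82, 11.81 and 11.66 in the null lungs and 11.82, 11.74 and 11.64 in the WT lungs. Across genes, null replicate 2 correlated at 0.992 with WT replicate 2, above its 0.990 and 0.983 with the other null lungs. *Tnrc6a* null replicate 3 and WT replicate 1 stood apart in that each was nearest to the other, at 0.992. Null replicate 3 correlated at 0.979 and 0.983 with the other null lungs, and WT replicate 1 at 0.987 and 0.988 with the other WT lungs. Differences are therefore also given without null replicate 3 and WT replicate 1. In that fit 14.5% of all genes (2895) were at an unadjusted p under 0.05 from limma, against 5.42% (1081) with all 6 lungs. These lungs were picked from the same values because each resembled the other genotype, so low p-values in that fit are no separate support. Liver genes, which lung should lack, averaged 4.36, 4.75 and 5.54 in the null lungs and 4.39, 4.53 and 4.89 in the WT lungs over 5 genes, with *Alb* at 7.61 in null replicate 3. All 5 had a higher mean in the null lungs, none at an unadjusted p under 0.05. Their part in any result was not tested.

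None of the 10 Notch genes passed an adjusted p of 0.05, and 9 of the 10 had a lower mean in the null lungs, all but *Hes1*. Their median difference was -0.158, while the median over all genes was 0 and 49.8% of all genes had a lower mean. Among genes with array signal like that of 9 of the members, a larger share had a lower mean, 62.9% to 71.4%. At an unadjusted p under 0.05 from limma lay 2 members, *Notch3* and *Jag2*, both lower, where 2.96% of all genes were lower and 2.46% higher at that level. For 3 members, *Notch2*, *Notch3* and *Jag2*, the highest null lung was below the lowest WT lung, which was the case for 5.51% of all genes. For 0 members the null lungs were all above, which was the case for 4.67% of all genes. With 3 lungs a genotype, the smallest p of an exact two-sided permutation test is 0.1, so lack of overlap alone cannot pass 0.05.

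**Figure D1:**
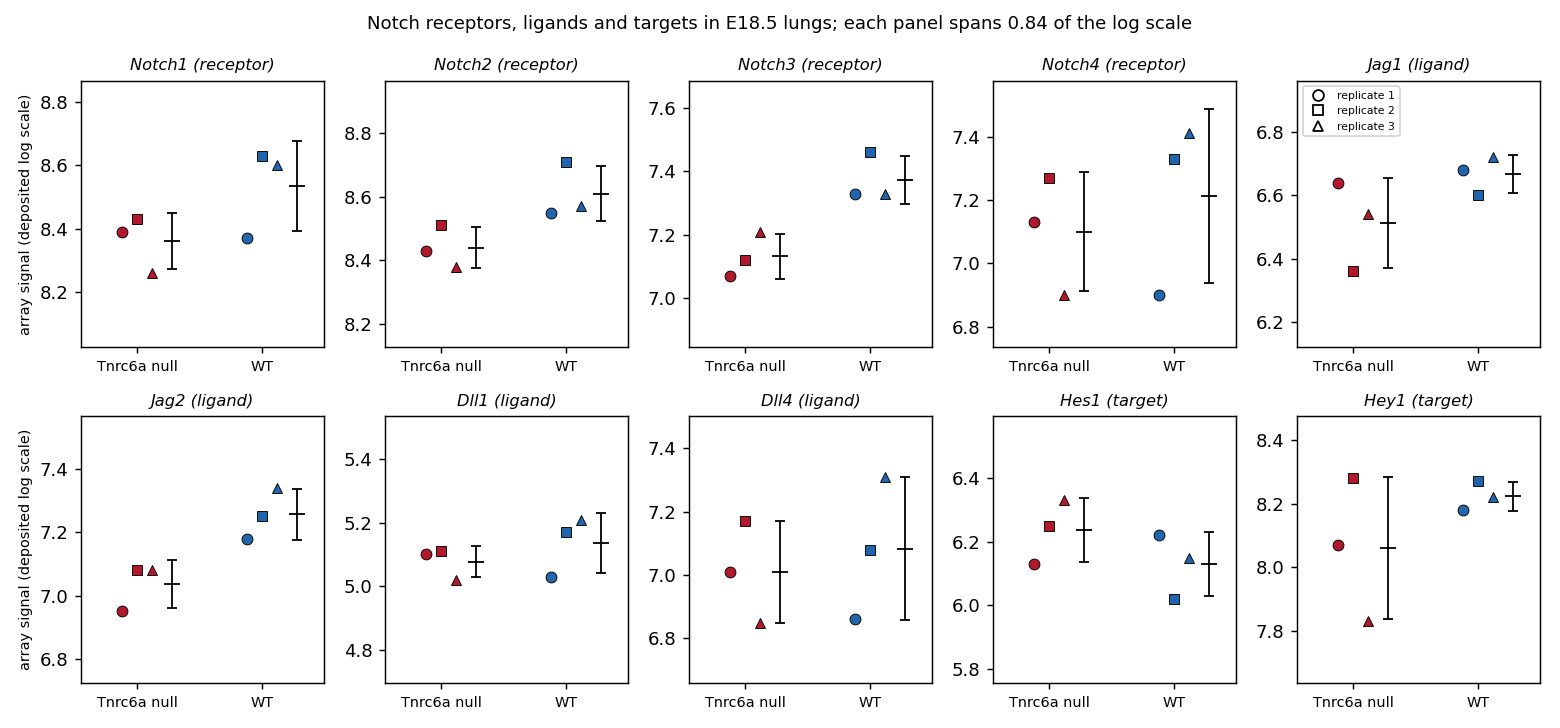
Signal of the 10 Notch genes by lung. The vertical axis gives the deposited log value, with the same span in every panel, a point stands for a lung with its replicate number as shape, and bars show mean and SD (n = 3). The null lungs lie below all WT lungs for *Notch2*, *Notch3* and *Jag2*, and the genotypes overlap in the other 7 genes.

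Among the receptors, *Notch3* had the clearest separation. *Notch3* is the receptor of vascular smooth muscle and pericytes. Its signal was 7.07, 7.12 and 7.21 in the null lungs and 7.33, 7.46 and 7.33 in the WT lungs. The highest null lung thus lay 0.12 below the lowest WT lung. The means were 7.13 ± 0.07 in null lungs and 7.37 ± 0.08 in WT lungs (SD, n = 3 each), a difference of -0.24 (standard error 0.0803, 95% interval -0.423 to -0.0573, adjusted p = 0.89 and unadjusted p = 0.0159 from limma). Without null replicate 3 and WT replicate 1 it was -0.30 (unadjusted p = 0.00273 from limma, in the fit where 14.5% of all genes were under 0.05). Without any single lung it lay between -0.278 and -0.197, and the unadjusted p from limma was above 0.05 without null replicate 1 (0.0618) or WT replicate 2 (0.0773). Genes of mural cells are given beside it. Of 9 measured genes of mural cells and smooth muscle, 7 were lower on average, where 49.8% of all genes were lower, with a median difference of -0.117. At an unadjusted p under 0.05 from limma 1 was lower, against 2.96% of all genes. That 1 gene was *Pdgfrb*, the growth factor receptor of pericytes, at 8.57, 8.72 and 8.77 in the null lungs and 8.86, 9.03 and 8.99 in the WT lungs, whereas the contractile gene *Acta2* was at 9.47, 9.45 and 9.82 in the null lungs and 9.75, 9.42 and 9.43 in the WT lungs. The mean level of the 9 genes ran from 7.35 to 7.43 in the null lungs and from 7.47 to 7.48 in the WT lungs. The part of mural cell number in the *Notch3* difference was not tested.

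*Notch2*, a receptor broadly active in epithelium and mesenchyme, gave 8.43, 8.51 and 8.38 in the null lungs and 8.55, 8.71 and 8.57 in the WT lungs. The gap between the genotypes was small, 0.04 between the highest null and the lowest WT lung. The difference was -0.17 (standard error 0.0771, 95% interval -0.345 to 0.00551, adjusted p = 0.89 from limma), also -0.17 without both lungs that stood apart, and the lack of overlap was lost when the arrays were quantile normalized. *Notch1*, the receptor with roles in endothelium and in the secretory fate of airway cells, gave 8.39, 8.43 and 8.26 in the null lungs and 8.37, 8.63 and 8.60 in the WT lungs. The overlap came from WT replicate 1, which lay among the null lungs. The difference was -0.17 (standard error 0.092, adjusted p = 0.89 and unadjusted p = 0.0936 from limma). It was -0.205 without both lungs that stood apart (unadjusted p = 0.00561 from limma, again with 14.5% of all genes under 0.05), and ran from -0.255 without WT replicate 1 to -0.123 without null replicate 3. *Notch4*, the endothelial receptor, gave 7.13, 7.27 and 6.90 in the null lungs and 6.90, 7.33 and 7.41 in the WT lungs. Null replicate 3 and WT replicate 1 shared its lowest value. Its difference of -0.11 (standard error 0.148, 95% interval -0.449 to 0.223, adjusted p = 0.936 from limma) was smaller than its standard error and ranged from -0.27 without WT replicate 1 to -0.0133 without null replicate 3, with -0.17 without both.

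Another 6 probe sets of the array list *Notch4* together with a second gene symbol. They were left out of the values above because their signal cannot be given to 1 gene. They lay between 2.81 and 4.29, 2 of them with identical values, and each was higher on average in the null lungs, by 0.07 to 0.43, opposite to the probe set of *Notch4* alone. The other 9 members had a single probe set each.

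**Figure D2:**
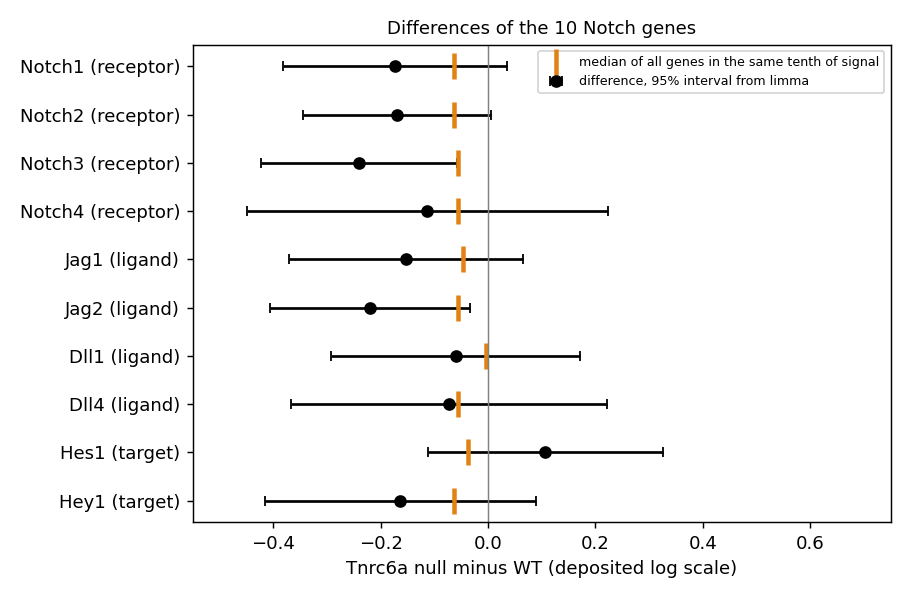
Difference of each Notch gene, *Tnrc6a* null minus WT, on the deposited log scale. Points are the differences, bars their 95% intervals from limma, and orange marks the median difference of all genes in the same of 10 bins of array signal. The intervals of *Notch3* and *Jag2* lie below 0, and those of the other 8 genes include it.

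Among the ligands, *Jag2* was lower in every null lung than in any WT lung. JAG2 is a ligand of basal and other epithelial cells and of endothelium. It gave 6.95, 7.08 and 7.08 in the null lungs and 7.18, 7.25 and 7.34 in the WT lungs, so the genotypes lay 0.10 apart at their nearest lungs. The means were 7.04 ± 0.08 in null lungs and 7.26 ± 0.08 in WT lungs (SD, n = 3 each). The difference was -0.22 (standard error 0.0822, 95% interval -0.407 to -0.033, adjusted p = 0.89 and unadjusted p = 0.0262 from limma), and -0.28 without both lungs that stood apart (unadjusted p = 0.00523 from limma, with 14.5% of all genes under 0.05). Without any single lung it lay between -0.258 and -0.177, and the unadjusted p from limma was above 0.05 without null replicate 1 (0.0995), WT replicate 2 (0.0656) or WT replicate 3 (0.105). *Jag1*, the ligand of smooth muscle, endothelium and airway epithelium, gave 6.64, 6.36 and 6.54 in the null lungs and 6.68, 6.60 and 6.72 in the WT lungs. Only null replicate 1 reached into the WT range, and null replicate 2 was the lowest lung. Its difference was -0.15 (standard error 0.0958, adjusted p = 0.896 from limma), which became -0.0767 without null replicate 2, -0.217 without null replicate 1 and -0.16 without both lungs that stood apart.

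The Delta-like ligands had the smallest differences of the 4 ligands. *Dll4*, the ligand of arteries and of the tip cells of sprouting vessels, gave 7.01, 7.17 and 6.85 in the null lungs and 6.86, 7.08 and 7.31 in the WT lungs. As for *Notch4*, null replicate 3 and WT replicate 1 were the lowest lungs, at nearly the same value. The difference was -0.07 (standard error 0.129, 95% interval -0.368 to 0.221, adjusted p = 0.954 from limma), and its sign turned without null replicate 3 (0.00667) or without WT replicate 3 (0.04), while it was -0.185 without WT replicate 1 and -0.105 without both lungs that stood apart. *Dll1*, which neuroendocrine and early multiciliated cells present to their neighbours, gave 5.10, 5.11 and 5.02 in the null lungs and 5.03, 5.17 and 5.21 in the WT lungs. The lowest lung of each genotype, null replicate 3 and WT replicate 1, had nearly the same value. Its difference was -0.06 (standard error 0.102, 95% interval -0.292 to 0.172, adjusted p = 0.952 from limma), and it ran from -0.113 without WT replicate 1 to -0.0233 without WT replicate 3, with -0.085 without both lungs that stood apart.

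The target genes had differences of opposite sign. *Hes1*, the repressor that keeps progenitors from neuroendocrine and multiciliated fates, was the only member higher on average in the null lungs, at 6.13, 6.25 and 6.33 in the null lungs and 6.22, 6.02 and 6.15 in the WT lungs. The genotypes overlapped, since WT replicates 1 and 3 lay inside the null range. The difference was 0.11 (standard error 0.0962, 95% interval -0.112 to 0.325, adjusted p = 0.91 from limma), and it stayed above 0 without any single lung, from 0.0517 without WT replicate 2 to 0.16 without null replicate 1, and it was 0.105 without both lungs that stood apart. *Hey1*, a target that marks arterial endothelium and also lies in airway epithelium, gave 8.07, 8.28 and 7.83 in the null lungs and 8.18, 8.27 and 8.22 in the WT lungs. The WT lungs lay close together, while the null lungs spread over 0.45 and included both the highest and the lowest lung. Its difference was -0.16 (standard error 0.111, 95% interval -0.416 to 0.0897, adjusted p = 0.897 from limma), and it ran from -0.273 without null replicate 2 (unadjusted p = 0.0267 from limma) to -0.0483 without null replicate 3, with -0.07 without both lungs that stood apart.

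**Figure D3:**
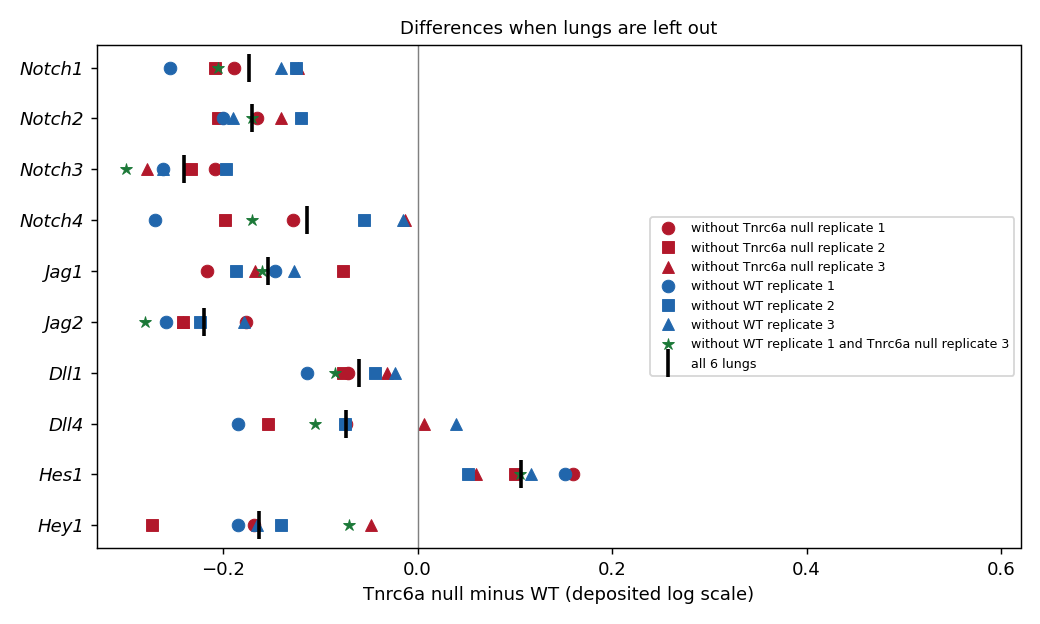
Difference of each Notch gene, *Tnrc6a* null minus WT, on the deposited log scale, with all 6 lungs (black line), without 1 lung (circles, squares and triangles for replicates 1, 2 and 3) and without both lungs that stood apart (star). *Notch3* and *Jag2* stay at or below -0.177 throughout, whereas *Notch4* lies between -0.27 and -0.0133 and *Dll4* crosses 0.

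The order of the lungs within a genotype was shared by several members. In 6 members, *Notch1*, *Notch2*, *Notch4*, *Dll1*, *Dll4* and *Hey1*, null replicate 3 was the lowest null lung and WT replicate 1 the lowest WT lung, which was so for 32.4% of all genes. *Notch3*, *Jag1*, *Jag2* and *Hes1* did not show it. Measured from each gene's mean over the lungs, the 10 members averaged -0.0677, -0.00167 and -0.12 in the null lungs and -0.0297, 0.0923 and 0.126 in the WT lungs. WT replicate 1 lay among the null lungs. Endothelial genes other than the members stood in nearly the same places. Over 12 genes they averaged -0.0529, 0.000417 and -0.162 in the null lungs and -0.0396, 0.121 and 0.133 in the WT lungs, at mean levels of 8.40 to 8.56 in the null lungs and 8.52 to 8.69 in the WT lungs. Of the 12, 11 were lower on average in the null lungs, where 49.8% of all genes were lower, with a median difference of -0.15. At an unadjusted p under 0.05 from limma 4 were lower, against 2.96% of all genes. These 4 were *Cdh5*, *Pecam1*, *Tie1* and *Eng*. The adherens junction gene *Cdh5* gave 9.98, 10.09 and 9.92 in the null lungs and 10.24, 10.25 and 10.19 in the WT lungs. Arterial genes other than *Hey1* averaged -0.0278, 0.0239 and -0.381 in the null lungs and -0.0478, 0.192 and 0.241 in the WT lungs over 6 genes, of which *Efnb2* is also a Notch target and *Sox17* is on the endothelial list too. The low place of null replicate 3 was not particular to endothelium. The lung identity genes averaged -0.0454, 0.0269 and -0.13 in the null lungs and 0.0369, 0.0491 and 0.0624 in the WT lungs. It was also lowest over the mural, heart muscle and club and secretory genes, and highest over the proliferation, liver and T cell genes. The part of endothelial cell number in the lower values of the Notch genes was not tested.

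**Figure D4:**
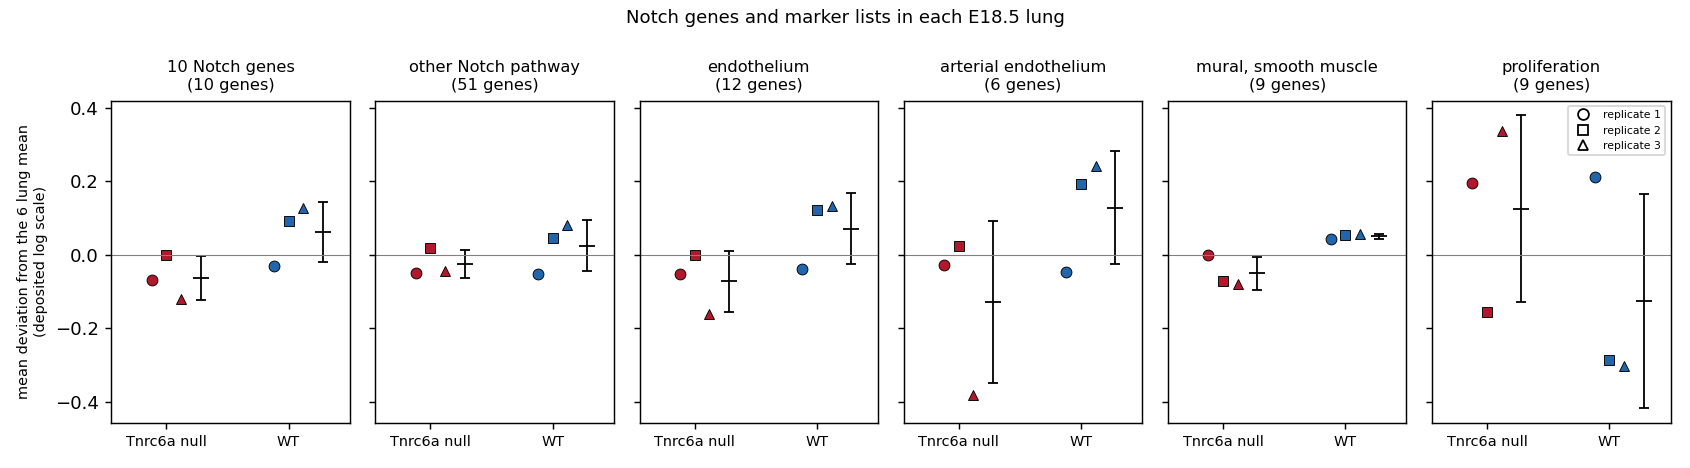
Mean deviation of the Notch genes and of marker lists from their mean over the 6 lungs. The vertical axis is in units of the deposited log values, a point stands for a lung, and bars show mean and SD (n = 3). The 10 Notch genes and the 12 endothelial genes place the lungs alike, with null replicate 3 lowest, as it is in the arterial and mural lists too. The proliferation list places null replicate 3 highest.

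Array signal itself went with the sign of the differences. Ranked by mean signal over the 6 lungs and split into 10 bins of like size, the genes had a median difference of 0.15 in bin 1, the dimmest, and -0.0633 in bin 10, the brightest. Of the 10 members, 9 lay in bins 7 to 10, where the medians ran from -0.0367 to -0.0633. In these bins 62.9% to 71.4% of genes had a lower mean in the null lungs. The null lungs were below the WT lungs without overlap for 7.43% to 15.6% of genes there. At an unadjusted p under 0.05 from limma, 3.91% to 8.83% were lower. Set against the median of its own bin, each member but *Hes1* was still lower, with a median of -0.103 over the 10. The difference less the bin median was -0.18 for *Notch3*, -0.16 for *Jag2* and -0.02 for *Dll4*. The part of this dependence on signal in the members' direction was not tested.

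Markers of the airway cells that Notch signalling chooses between gave mixed values. Of 10 multiciliated cell genes 6 were higher and 4 lower on average, with a median difference of 0.08. The 1 at an unadjusted p under 0.05 was *Rsph1*, a radial spoke gene of motile cilia, with a difference of -0.46 (adjusted p = 0.89 from limma) and without overlap. *Foxj1*, the transcription factor of motile cilia, gave 6.48, 6.44 and 6.38 in the null lungs and 6.39, 6.51 and 6.59 in the WT lungs. Of 8 club and secretory genes 5 were lower and 3 higher on average, 1 of them lower at an unadjusted p under 0.05. *Cyp2f2*, a cytochrome of club cells, gave 10.33, 10.41 and 10.05 in the null lungs and 10.51, 10.59 and 10.66 in the WT lungs. Null replicate 3 was the lowest lung of the club and secretory list, at -0.54, against 0.0867 and 0.189 in the other null lungs and -0.0596 to 0.20 in the WT lungs. Of 6 measured neuroendocrine genes 4 were higher and 2 lower on average, none at an unadjusted p under 0.05. T cell and thymus genes, another seat of Notch signalling, averaged 3.71 to 3.91 in the null lungs and 3.75 to 3.89 in the WT lungs over 8 genes, all dim. Proliferation genes were higher on average in 9 of 9 measured, 3 of them at an unadjusted p under 0.05 from limma, with a median difference of 0.25, and were highest in null replicate 3. Beside the counts of these lists, 49.8% of all genes were lower on average. At an unadjusted p under 0.05 from limma, 2.96% of all genes were lower and 2.46% higher.

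The rest of the pathway was read from 51 other measured genes. None passed an adjusted p of 0.05 with limma, and 1 was lower at an unadjusted p under 0.05 from limma, against 2.96% of all genes. On average 32 were lower and 19 higher, where 49.8% of all genes were lower, and the median difference was -0.0567. The null lungs lay below the WT lungs without overlap in 2 of the 51, *Spen* and *Itch*, against 5.51% of all genes. They lay above in 2, *Egfl7* and *Nrarp*, against 4.67% of all genes. *Nrarp*, a target that feeds back on Notch, differed by 0.13. *Spen*, a corepressor partner of RBPJ, gave 7.37, 7.30 and 7.44 in the null lungs and 7.58, 7.59 and 7.50 in the WT lungs (difference -0.19, standard error 0.076, adjusted p = 0.89 from limma). *Itch*, a ubiquitin ligase that targets Notch for degradation, gave 7.35, 7.42 and 7.45 in the null lungs and 7.86, 7.54 and 7.48 in the WT lungs (difference -0.22, standard error 0.107), where WT replicate 3 lay close to the null lungs. *Egfl7*, a secreted endothelial protein that antagonises Notch, gave 8.72, 8.66 and 8.72 in the null lungs and 8.51, 8.61 and 8.64 in the WT lungs (difference 0.11, standard error 0.0706). Of 7 genes that add sugars to Notch 6 were lower on average, among them *Gxylt2*, a xylosyltransferase, at -0.32 (standard error 0.176) and *Lfng*, the Fringe enzyme that tunes ligand choice, at -0.18 (standard error 0.118). *Lfng* lay at 6.78, 6.95 and 6.83 in the null lungs and 6.79, 7.07 and 7.23 in the WT lungs, with overlap. *Dner*, a Delta-like surface protein of neurons, differed by 0.26 (standard error 0.152). The cutting step held *Furin*, the protease that matures the receptors, at -0.20 (standard error 0.0919), with 6 of 9 genes lower on average. The core transcription factor *Rbpj* differed by -0.04 (standard error 0.0789, 95% interval -0.22 to 0.14), at 7.58, 7.55 and 7.40 in the null lungs and 7.52, 7.54 and 7.59 in the WT lungs. Of 12 further genes listed as targets 6 were lower and 6 higher on average. Whether Notch induces each of them in lung was not tested. *Hes6*, which opposes *Hes1*, was at -0.25 (standard error 0.12), *Efnb2*, the arterial ephrin, at -0.27 (standard error 0.162), *Hey2* at -0.09, *Heyl* at -0.05 and *Hes5* at 0.07, the last 3 smaller than their standard errors.

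Promoter sequences are shown for the 3 members without overlap and, for comparison, for *Hes5*, a classical target. They are RefSeq sequences of build GRCm38.p6, each 300 bases from 250 before the start of the gene, 5′ to 3′ on the gene's strand, with matches on either strand in capitals. The motifs searched were TGGGAA, the core site of RBPJ, its longer form GTGGGAA, which holds the core, and CACGCG and the palindrome CACGTG, which HES and HEY repressors can bind. In the sequences shown, capitals mark the RBPJ core or CACGCG.
Notch2, chr3:98013288-98013587, plus strand: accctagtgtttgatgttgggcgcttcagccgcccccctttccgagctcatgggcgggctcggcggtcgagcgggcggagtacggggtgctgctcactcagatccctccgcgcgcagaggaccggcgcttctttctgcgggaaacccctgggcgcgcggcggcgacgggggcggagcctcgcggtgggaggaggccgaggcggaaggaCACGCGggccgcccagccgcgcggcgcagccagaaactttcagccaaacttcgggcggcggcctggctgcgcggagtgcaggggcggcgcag
Notch3, chr17:32166841-32167140, minus strand: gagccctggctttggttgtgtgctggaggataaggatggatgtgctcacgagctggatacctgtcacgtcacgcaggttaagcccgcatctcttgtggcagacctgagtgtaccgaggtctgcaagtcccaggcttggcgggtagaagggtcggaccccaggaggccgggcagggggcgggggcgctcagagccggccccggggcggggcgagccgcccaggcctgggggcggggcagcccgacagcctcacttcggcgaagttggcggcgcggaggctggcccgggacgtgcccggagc
Jag2, chr12:112929446-112929745, minus strand: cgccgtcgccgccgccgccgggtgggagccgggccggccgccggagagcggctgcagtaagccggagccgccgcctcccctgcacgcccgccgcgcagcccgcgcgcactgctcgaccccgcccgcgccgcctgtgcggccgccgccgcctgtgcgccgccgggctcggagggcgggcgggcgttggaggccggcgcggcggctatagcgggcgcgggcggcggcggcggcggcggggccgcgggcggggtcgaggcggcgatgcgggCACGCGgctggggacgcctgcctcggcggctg
Hes5, chr4:154960673-154960972, plus strand: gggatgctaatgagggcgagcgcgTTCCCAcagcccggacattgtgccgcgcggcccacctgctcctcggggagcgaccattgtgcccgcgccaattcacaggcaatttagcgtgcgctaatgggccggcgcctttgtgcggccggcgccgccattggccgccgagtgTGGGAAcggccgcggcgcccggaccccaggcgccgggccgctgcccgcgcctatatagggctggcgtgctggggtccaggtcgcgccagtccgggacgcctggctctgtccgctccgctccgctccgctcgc
Promoters were matched for 8 of the 10 members, not for *Hes1* and *Hey1*. The RBPJ core was in none of the 9 promoters of these 8 members and in 25.6% of all 32851 promoters (its longer form in 6.38%). In *Hes5* it lies on both strands, with its first base at -82 and -226 from the gene's start. CACGTG was in no member promoter and in 7.15% of all promoters. CACGCG was in 5 of the 9 member promoters, which belong to *Dll1*, *Dll4*, *Jag1*, *Jag2* and *Notch2*, against 9.27% of all promoters. It is a CpG-rich word, and among the 11378 promoters with at least the 15 CpG of the poorest of those 5 it was in 23.1%. That share is not matched to the CpG content of the 9. The *Notch4* promoter, with 5 CpG, lies below 15, and that of *Jag2*, with 63, lies far above it. *Notch3*, the member with the lowest difference, holds none of these motifs in this window, and *Notch2* and *Jag2* hold CACGCG once each. These matches are letters in a window and were not tested as binding sites.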

How the data were processed

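Whole lungs of 3 *Tnrc6a* null and 3 WT embryos were profiled on Affymetrix arrays. The authors deposited 1 log2 value per probe set and lung, as the labels call it; the submitters' processing notes name MAS5, and the version was not stated in the material used here. Values were used as deposited. Of 35045 probe sets, 21789 had 1 gene symbol, and 21698 of these were matched to RefSeq (GRCm38.p6) by their Entrez IDs and took its symbol. The brightest probe set stood for each of 19938 genes. No signal over background was measured, and the number of arrays limits the precision. All genes were fitted with limma 3.58.1 in R 4.3.3 (lmFit, eBayes with trend), with Benjamini-Hochberg adjustment over all genes and a threshold of 0.05; the procedure was tested on simulated data. Summaries and plots used Python 3.11.15, pandas 2.3.3, scipy 1.17.1 and matplotlib 3.10.9. The members and gene lists were chosen with earlier results of these data known. All 10 members are named; of the other pathway genes, the 8 with the smallest unadjusted p and *Lfng*, *Rbpj*, *Hes5*, *Hey2* and *Heyl*. Marker genes and the genes without overlap were named besides. The alternatives were leaving out each lung or both lungs that stood apart, the methods' t-test (the two-sample test that the series' design text names, run unpaired with equal variances), array weights, the replicate block, robust eBayes, eBayes with no trend, median centring, quantile normalization, the mean over a gene's probe sets, and only genes at or above the median signal.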

Additional observations from a re-analysis of the deposited data

How the results depend on the processing

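In all 16 alternatives, 0 Notch members and 0 other pathway genes passed an adjusted p of 0.05, whether from limma or from the methods' t-test. By the methods' t-test 2 members were at an unadjusted p under 0.05. Of all genes, 2 passed with array weights, 0 with the methods' t-test (1102 unadjusted) and 23 without both lungs that stood apart. Without 1 lung the count ran from 0 to 1, and *Tnrc6a* missed the threshold without WT replicate 3. Members at an unadjusted p under 0.05, 2 as reported with 5.42% of all genes, numbered 4 with array weights (12.3% of all genes), 4 with median centring (6.92%), 1 with quantile normalization (4.45%) and 4 without both lungs that stood apart (14.5%). Without 1 lung they numbered 0 (without null replicate 1, 3.67%, or WT replicate 2, 3.08%) to 5 (without WT replicate 1, 8.68%). *Notch3* was among them in 14 of 16 alternatives and *Jag2* in 12 of 16. The members' median difference ran from -0.202 to -0.0858 without 1 lung (the highest without null replicate 3). *Dll4* ran from -0.185 to 0.04 and was above 0 without null replicate 3 (0.00667) or WT replicate 3 (0.04). No label pairs the lungs by replicate number. Deviations of same-numbered lungs from their genotype means correlated at -0.295, 0.361 and -0.162. These values cannot decide whether lungs were paired, because the deviations of 3 lungs from their own mean are tied to each other. With the replicate block 1 gene passed and 2 members were at an unadjusted p under 0.05 from limma. The cause of these changes was not tested. A filter on dim genes removed *Dll1*.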
